A study of Macaca mulatta with 24 samples.

Results

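The genes that digest and take up dietary sugar in the small intestine were followed in ileum of rhesus macaques after total body irradiation (TBI). The members were 6 genes chosen by symbol, namely LCT, SI, TREH, SLC5A1, SLC2A5 and SLC2A2. Of these, 5 genes with 8 probes were found among the 16094 symbols of the deposited normalized table. LCT, SLC5A1 and SLC2A2 each had a pair of probes, TREH and SLC2A5 had 1 each, and no probe carried the symbol SI. These members were selected on the changes they show against the unirradiated animals in these same arrays, so those changes are given as a description, without p-values.

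Total RNA from whole ileal tissue of 24 young adult male animals was hybridized without pooling, 1 array for each animal. The control group held 4 unirradiated, sham-treated animals. The other 20 animals received a single total body dose of cobalt-60 gamma rays, either 6.7 Gy or 7.4 Gy. After each dose there were 4 animals on day 4, 4 animals on day 7 and 2 animals on day 12. The controls carry the label of day 4 and served for every day, so the comparisons with them share animals. Levels are log2 signals relative to the 75th percentile of the same array. They can be compared between animals for 1 probe but not between probes. The limits for a call were at least a 2-fold difference and an adjusted p under 0.05 (limma over all 24 arrays, Benjamini-Hochberg). In whole tissue, fewer enterocytes and less RNA per enterocyte cannot be told apart.

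Dietary disaccharides are split at the brush border of enterocytes by membrane-bound enzymes. Lactase, encoded by LCT, splits lactose into glucose and galactose, trehalase (TREH) splits trehalose, and sucrase-isomaltase (SI) splits sucrose and starch fragments. The sodium-coupled transporter encoded by SLC5A1 carries glucose and galactose into the enterocyte, the carrier encoded by SLC2A5 takes up fructose, and the carrier encoded by SLC2A2 passes these sugars on towards the blood across the basolateral membrane. In most mammals lactase is strongest in the upper small intestine and declines after weaning.

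All 5 tested markers of ileal enterocytes (FABP6, SLC10A2, SLC51A, SLC51B and CUBN) were well above background in the 4 controls, as were all 4 tested markers of duodenal and jejunal enterocytes. Levels of different probes cannot be compared on these arrays, so this does not tell the segments apart. On the 24 arrays, 72.7% to 88.1% of probes were well above background. A pair of animals stood apart. Replicate 4 of the day 4, 6.7 Gy group had the lowest signal of its group in 8 of 8 probes of the sugar genes. Its mean over the 10 tested enterocyte markers was 1.40, against a group median of 3.02, and its crypt and proliferation markers (LGR5, OLFM4 and TOP2A) averaged 0.33, the highest value of that group. Replicate 1 of the controls had the highest signal of its group in 7 of 8 probes, and its smooth muscle markers averaged 4.46, against a control median of 6.55. Results that rest on these animals are given with and without them below, as an analysis chosen after seeing the data.

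The largest differences of the 5 genes were those of LCT A_01_P1682951 on days 4 and 7, a probe not well above background in the controls. With all animals, SLC2A2 differed more from the controls than LCT A_01_P017049 on day 4 after 6.7 Gy and on day 7 at both doses. The group means of both LCT probes were above the controls on day 4, at intermediate levels on day 7 and near the control level on day 12. SLC2A2 went the other way, with the lowest group mean of both probes on day 4 after 7.4 Gy. Its point estimates were lower by more than 2-fold on days 4 and 7 at both doses, but after 6.7 Gy not without the animals that stood apart. TREH, SLC5A1 and SLC2A5 were called altered in no comparison. Against the controls, 1 of 8 probes was called on day 4 after 6.7 Gy, where 0.978% of all 36108 tested probes were called. After 7.4 Gy the count on day 4 was 4 of 8 (2.33% of all tested). On day 7 the count was 1 of 8 after 6.7 Gy (0.235%) and 1 of 8 after 7.4 Gy (0.568%). On day 12 it was 0 of 8 after both doses, by limma (0.108% of all tested after 6.7 Gy and 0.0443% after 7.4 Gy), and 0 of 8 also at an unadjusted p under 0.05 with a 2-fold change. Nothing is read from these counts, or from the single calls of members against the controls given below, since the members were chosen on the same comparisons. In small groups many probes do not overlap with the controls. Of all tested probes, 11.8% and 15.7% had no overlap on day 4, 7.98% and 7.96% on day 7, and 22.8% and 17.8% on day 12, in each case 6.7 Gy before 7.4 Gy.

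The LCT probe A_01_P1682951 entered the test only through the groups in which it is high, namely day 4 at both doses and day 7 after 7.4 Gy, where all 4 animals were well above background. It was not well above background in any of the 4 controls, whose levels were -7.43, -7.86, -8.25 and -7.15. The 4 animals of day 4 after 6.7 Gy read -2.38, -2.83, -1.99 and -5.26, all well above background. Those of day 4 after 7.4 Gy read -2.52, -0.61, -2.61 and -1.72. Every irradiated animal of day 4 was thus above every control, including the animal that stood apart. With the background-subtracted signals the mean was at least 12.0-fold higher than in the controls after 6.7 Gy and at least 28.5-fold higher after 7.4 Gy. For these bounds, a control reading was raised to the dimmest detected signal of its array where it lay under that signal. They hold for this background subtraction alone and are no limit under another, because the size of the difference depended on it. Nor is the dimmest detected signal a ceiling for undetected readings, since replicate 3 of day 7 after 6.7 Gy and replicate 2 of day 12 after 6.7 Gy were undetected at -5.87 and -6.16, above the dimmest detected signals of their arrays at -6.00 and -6.43. With normexp (offset 50) on spot and background medians the fitted log2 differences were 1.53 and 2.29, in place of 4.56 ± 0.73 and 5.81 ± 0.73 (SE, n = 4 and 4). The value after 6.7 Gy was 5.27 without replicate 4 of that group, and 5.35 without that animal and replicate 1 of the controls.

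On day 7 the same LCT probe read -2.63, -4.67, -5.87 and -3.55 after 6.7 Gy, where 3 of 4 animals were well above background. After 7.4 Gy the animals read -2.72, -4.33, -3.88 and -1.81, and 4 of 4 were well above background. After 7.4 Gy the mean was at least 11.4-fold higher than in the controls, a bound of the same kind and with the same limit. No bound is given after 6.7 Gy, because 1 of the 4 readings, -5.87, was itself not well above background. Again no irradiated reading overlapped with a control. The call after 6.7 Gy was lost when any 1 of the 4 controls, or replicate 1, 2 or 4 of the irradiated animals, was left out. With normexp both day 7 calls were lost, at log2 differences of 0.92 and 1.37. On day 12 the probe read -7.70 and -6.16 after 6.7 Gy, with 0 of 2 animals well above background. After 7.4 Gy it read -7.27 and -6.38, with 1 of 2 well above background. The fitted differences from the controls were then 0.74 ± 0.90 and 0.85 ± 0.90 (SE, n = 2 and 4), and the animals overlapped with the controls.

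**Figure D1:**
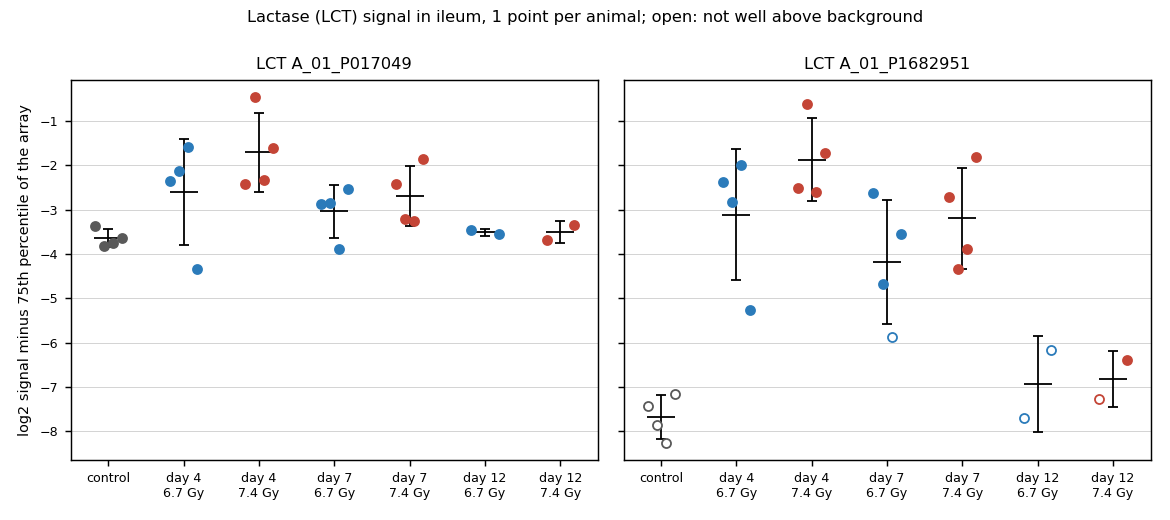
Level of the LCT probes A_01_P017049 (left) and A_01_P1682951 (right) by group, as log2 signal minus the 75th percentile of the array (vertical axis). Each point is 1 animal, open points were not well above background, and bars give the group mean ± SD (n = 4, or 2 on day 12). On the right, all 4 controls are open and lie below -7, and the 8 animals of day 4 lie between -5.26 and -0.61.

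The other LCT probe, A_01_P017049, was well above background on all 24 arrays. The controls read -3.36, -3.82, -3.76 and -3.64, a narrow range with an SD of 0.20. On day 4 the readings were -2.36, -2.13, -1.58 and -4.33 after 6.7 Gy. After 7.4 Gy they were -2.42, -0.46, -2.32 and -1.62. In 7 of the 8 animals the level was above every control, and replicate 4 after 6.7 Gy was below every control. The mean difference was 1.04 ± 0.49 after 6.7 Gy, and 1.71 without that animal and replicate 1 of the controls. After 7.4 Gy it was 1.94 ± 0.49, a 3.83-fold difference that was called. That call did not hold with slide as a block, at a value of 1.95, or with array position as a covariate, at 2.65, nor without any 1 of control replicates 2 and 3 and replicates 2 and 4 of the irradiated group. On day 7 the readings were -2.88, -2.85, -3.89 and -2.53 after 6.7 Gy, a difference of 0.61 ± 0.49. After 7.4 Gy they were -2.43, -3.20, -3.26 and -1.85, a difference of 0.96 ± 0.49 in which all 4 animals were above all controls. On day 12 the levels were -3.45 and -3.56 after 6.7 Gy and -3.69 and -3.34 after 7.4 Gy, 0.14 ± 0.60 and 0.13 ± 0.60 above the controls.

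The LCT probes moved together between animals (Pearson r = 0.86 over 24 arrays, and 0.86 after the group means were subtracted), but the sizes of their differences were unlike. The difference from the controls of A_01_P1682951 exceeded that of A_01_P017049 by 3.52 ± 0.43 on day 4 after 6.7 Gy and by 3.87 ± 0.43 after 7.4 Gy. On day 7 the excess was 2.88 ± 0.43 and 3.53 ± 0.43. On day 12 it was 0.61 ± 0.53 and 0.72 ± 0.53. These values include control readings of A_01_P1682951 that were not well above background. With normexp the probes were less unlike. Their differences, A_01_P1682951 first, were 1.53 and 0.87 on day 4 after 6.7 Gy and 2.29 and 1.40 after 7.4 Gy. On day 7 they were 0.92 and 0.46 after 6.7 Gy and 1.37 and 0.74 after 7.4 Gy. What part of the transcript each probe binds is not known from the files. The pairs of other genes were alike in comparison. The probes of SLC2A2 differed in their changes by 0.10 or less, and those of SLC5A1 by 0.08 to 0.46.

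Slides 1 to 4 of the 6 slides held a control, which gave 12 pairs of an irradiated and a control array on 1 slide. Each control entered several pairs, so the pairs are not independent. LCT A_01_P1682951 was higher in the irradiated animal in 12 of 12 pairs, by 0.55 to 6.53. The control reading was not well above background in any of these pairs, and in 3 of them neither was the irradiated one, so the order within those 3 is that of undetected signals. LCT A_01_P017049 was higher in 10 of 12 pairs, with a median of 0.72. With slide as a block the differences of A_01_P1682951 were 4.53 and 5.89 on day 4 and 3.49 and 4.45 on day 7, in each case 6.7 Gy before 7.4 Gy. All controls lay at array position 1 of a slide, which the design shares only with animals of the day 4, 6.7 Gy group. The part of position in the differences was not tested beyond a fit with position as a covariate, which could be made for day 4 alone and gave 5.07 and 6.83. In that fit, position 2 was set apart from position 1 only by replicates 3 and 4 against replicates 1 and 2 of the day 4, 6.7 Gy group. All values with this covariate for day 4 after 7.4 Gy thus rest on those animals, among them replicate 4, which stood apart.

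The day contrasts leave the controls out. LCT was chosen with its high level on day 4 known, so its differences between days are a description and no p-value is given. The mean of A_01_P1682951 was lower on day 12 than on day 4, by -3.81 ± 0.90 after 6.7 Gy and by -4.96 ± 0.90 after 7.4 Gy (SE, n = 2 and 4). These values include day 12 readings that were not well above background, 2 of 2 after 6.7 Gy and 1 of 2 after 7.4 Gy. All day 12 animals lay below all day 4 animals at both doses, and 35.6% of all tested probes after 6.7 Gy and 32.2% after 7.4 Gy had no overlap between these days. With normexp the differences were -1.37 and -2.20. Without replicate 4 of day 4 the value after 6.7 Gy was -4.53. With any 1 animal left out the values ran from -4.59 to -3.04 after 6.7 Gy and from -5.40 to -4.52 after 7.4 Gy. The probe A_01_P017049 was lower on day 12 than on day 4 by -0.91 ± 0.60 after 6.7 Gy and -1.81 ± 0.60 after 7.4 Gy. The first was -1.48 without replicate 4 of day 4 and -0.57 without replicate 3 of day 4.

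From day 4 to day 12, 1 of 8 probes of the sugar genes, LCT A_01_P1682951, met the limits for a call at each dose, beside 2.59% of all tested probes after 6.7 Gy and 1.8% after 7.4 Gy. Nothing is read from this count, for the reason given above. From day 4 to day 7, 0 of 8 were called at each dose (0.354% and 0.942% of all tested), and 0 of 8 also had an unadjusted p under 0.05 with a 2-fold change. From day 7 to day 12, 0 of 8 were called (0.036% and 0.00554%), with 1 probe at an unadjusted p under 0.05 and a 2-fold change at each dose, which was LCT A_01_P1682951. Its differences between day 7 and day 12 were -2.75 ± 0.90 and -3.64 ± 0.90, and -0.76 and -1.28 with normexp. With 1 animal left out they ran from -3.52 to -1.98 and from -4.08 to -3.18, and they include the same undetected readings. In the order of group means of this probe, day 4 after 7.4 Gy (-1.87) was followed by day 4 after 6.7 Gy (-3.11), day 7 after 7.4 Gy (-3.19) and day 7 after 6.7 Gy (-4.18). The SDs within these groups were 0.93 to 1.47, so neighbours in this order did not differ beyond their spread. The next, day 12 after 7.4 Gy, had a mean of -6.82.

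Between doses, the level of LCT was higher after 7.4 Gy than after 6.7 Gy on days 4 and 7 by point estimate, but the animals overlapped. For A_01_P1682951 the difference on day 4 was 1.25, with an interval of 2 SE on each side from -0.22 to 2.71, and 0.53 without replicate 4 of the 6.7 Gy group. On day 7 it was 1.0, from -0.47 to 2.46, and 0.43 to 1.51 with 1 animal left out. Replicate 3 of day 7 after 6.7 Gy, at -5.87, was not well above background. For A_01_P017049 the difference on day 4 was 0.90, from -0.08 to 1.87, and 0.32 without replicate 4 of the 6.7 Gy group. On day 7 it was 0.35, from -0.63 to 1.33, and 0.07 to 0.54 with 1 animal left out. Of the 8 probes, 0 were called between doses on day 4 (0.0% of all tested probes), on day 7 (0.0%) or on day 12 (0.00277%). At an unadjusted p under 0.05 with a 2-fold change the counts were 0, 1 and 0. The 1 probe was that of SLC2A5, described below.

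**Figure D2:**
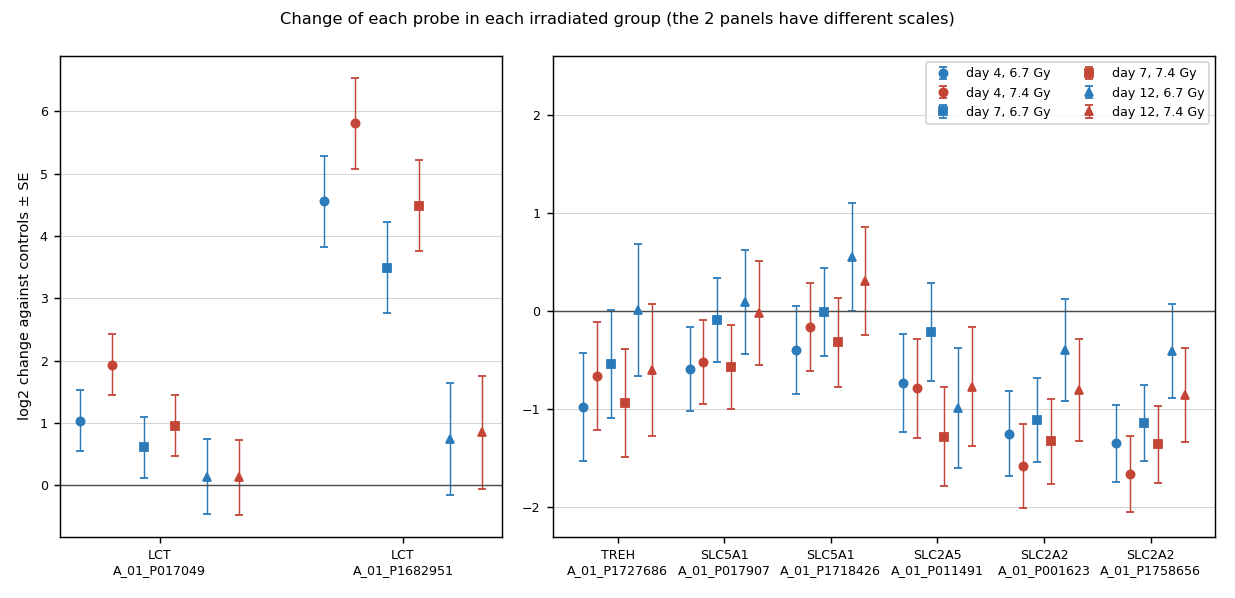
Difference from the controls in log2 units (vertical axis) for each probe of LCT (left) and of TREH, SLC5A1, SLC2A5 and SLC2A2 (right, on a smaller scale). Symbols give the day, blue 6.7 Gy and red 7.4 Gy, bars ± 1 SE of the limma fit. LCT A_01_P1682951 reaches 5.81 on day 4 after 7.4 Gy, and both SLC2A2 probes lie below 0 in all 6 groups.

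SLC2A2, the basolateral sugar carrier, was lower after TBI with both of its probes. The probe A_01_P001623 read 1.03, 0.02, -0.23 and 0.09 in the controls. On day 4 after 7.4 Gy it read -1.94, -1.72, -1.24 and -0.51, all below all controls, a difference of -1.58 ± 0.43. The probe A_01_P1758656 read -0.64, -1.59, -1.62 and -1.28 in the controls and -3.49, -3.30, -2.81 and -2.17 on day 4 after 7.4 Gy. Its difference was -1.66 ± 0.39, again with no overlap. Both were called, at 2.99-fold and 3.16-fold lower. Both calls were lost without replicate 1 of the controls, where the values were -1.31 and -1.45, and without replicate 1 of the irradiated group, where they were -1.39 and -1.48. The call of A_01_P001623 was also lost without replicate 2 or replicate 3 of that group, at -1.46 and -1.62. With array position as a covariate neither SLC2A2 probe was called, at -1.10 and -1.23.

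On day 4 after 6.7 Gy, SLC2A2 A_01_P001623 read -0.56, -1.0, 0.01 and -2.54, and A_01_P1758656 read -2.28, -2.57, -1.63 and -4.07. The differences of -1.25 ± 0.43 and -1.35 ± 0.39 were not called, and they were -0.48 and -0.66 without replicate 4 of that group and replicate 1 of the controls. On day 7 the differences were -1.11 ± 0.43 and -1.14 ± 0.39 after 6.7 Gy, and -1.33 ± 0.43 and -1.36 ± 0.39 after 7.4 Gy. All 8 animals of day 7 lay below all controls with both probes, although none of these differences was called. Of all tested probes, 7.98% and 7.96% had no overlap in these comparisons. Without replicate 1 of the controls those after 6.7 Gy were -0.84 and -0.93. With slide as a block, both probes were called on day 4 after 6.7 Gy (-1.75 and -1.77) and on day 7 after 7.4 Gy (-1.83 and -1.77). Within slides, SLC2A2 was lower than in the control of the slide in 11 of 12 pairs with each probe, by a median of -1.29 and -1.17. These pairs share controls, and the SLC2A2 probes moved together (Pearson r = 0.99). On day 12 the levels were nearer to the controls, with differences of -0.40 and -0.41 after 6.7 Gy and -0.81 and -0.86 after 7.4 Gy. Both animals of day 12 after 7.4 Gy lay below all controls with both probes, in a comparison where 17.8% of all tested probes had no overlap. With A_01_P001623 the higher of them read -0.29, beside -0.23 in the lowest control. With slide as a block the differences of day 12 after 7.4 Gy were -1.48 and -1.45. In 0 of the dose and day contrasts was SLC2A2 called.

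**Figure D3:**
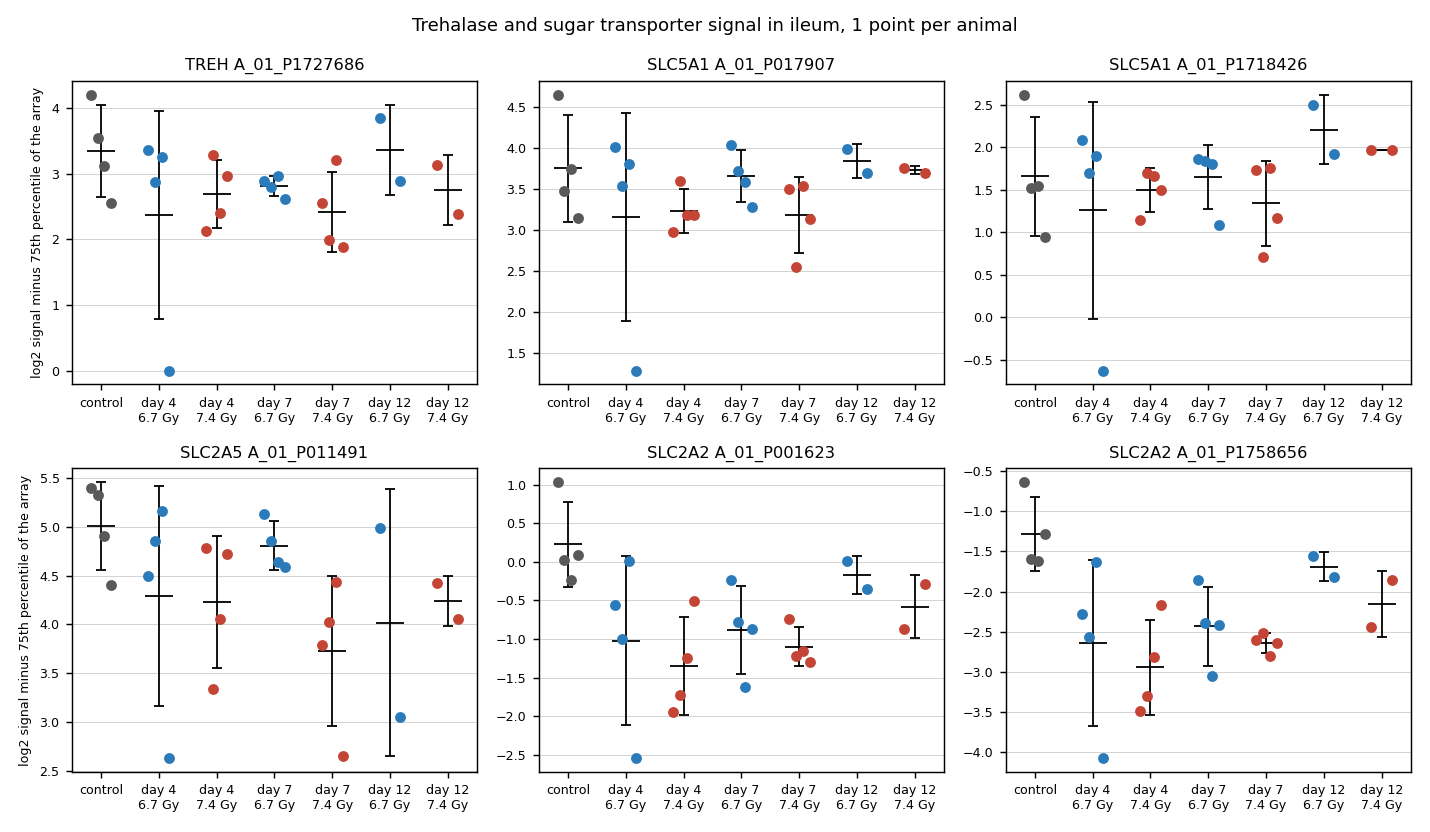
Level of TREH, SLC5A1, SLC2A5 and SLC2A2 by group, as log2 signal minus the 75th percentile of the array, with a scale of its own for each probe. Each point is 1 animal and bars give the mean ± SD (n = 4, or 2 on day 12). The lowest point of all 24 animals is in each panel replicate 4 of day 4 after 6.7 Gy, which for TREH reads 0.00, beside 2.87 to 3.36 in the other 3 animals of its group.

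TREH, the enzyme that splits trehalose, read 4.20, 3.55, 3.11 and 2.55 in the controls. On day 4 it read 3.36, 2.87, 3.25 and 0.00 after 6.7 Gy and 2.13, 3.28, 2.40 and 2.97 after 7.4 Gy. The differences of -0.98 ± 0.55 and -0.66 ± 0.55 lay within the spread of the animals, and the first was 0.09 without the animals that stood apart. Day 7 gave differences of -0.54 ± 0.55 and -0.94 ± 0.55, day 12 gave 0.01 ± 0.67 and -0.60 ± 0.67. In every group the irradiated animals overlapped with the controls. With array position as a covariate the difference of TREH on day 4 after 7.4 Gy turned from -0.66 to 0.84. That fit rests on the replicates of day 4 after 6.7 Gy, among them replicate 4 at 0.00.

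SLC5A1, the sodium-coupled glucose and galactose transporter, had fitted differences from the controls of less than 2-fold in all 6 groups, although not with array position as a covariate, where that of A_01_P1718426 on day 4 after 7.4 Gy was 1.11 and that of A_01_P017907 was 0.71. With A_01_P017907 the controls read 4.65, 3.47, 3.74 and 3.14. The readings on day 4 were 4.01, 3.54, 3.81 and 1.28 after 6.7 Gy and 2.97, 3.60, 3.18 and 3.18 after 7.4 Gy. Over the 6 irradiated groups the differences ran from -0.59 ± 0.43 to 0.09 ± 0.53. With A_01_P1718426 they ran from -0.40 ± 0.45 to 0.55 ± 0.55. On day 4 after 6.7 Gy the values turned from -0.59 and -0.40 to 0.33 and 0.56 when the pair of animals that stood apart was left out. All irradiated groups overlapped with the controls with both probes.

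SLC2A5, the fructose carrier, read 5.40, 5.33, 4.91 and 4.41 in the controls. On day 7 it read 5.13, 4.86, 4.64 and 4.59 after 6.7 Gy and 3.79, 4.03, 4.44 and 2.65 after 7.4 Gy. All 4 animals of the higher dose were below all 4 of the lower dose on that day, when 3.63% of all tested probes had no overlap between the doses. That difference of -1.07 ± 0.50 had an unadjusted p of 0.044 and a limma adjusted p of 0.99, so it was not called. Against the controls, the difference on day 7 after 7.4 Gy was -1.28 ± 0.50 and the animals overlapped. On day 12 after 6.7 Gy the animals read 4.99 and 3.05, a spread wider than the difference of -0.99 ± 0.61 from the controls. On day 4 the differences were -0.73 ± 0.50 and -0.79 ± 0.50, the first being -0.05 without the animals that stood apart and the second -0.01 with array position as a covariate.

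Enterocyte markers were set beside the sugar genes, since all members are known from these cells. Of 10 tested enterocyte markers, 2 were called on day 4 after 6.7 Gy, both lower, namely VIL1 (-1.32 ± 0.19, limma adjusted p = 0.0011) and KRT20 (-1.05 ± 0.22, limma adjusted p = 0.015). After 7.4 Gy, VIL1 (-1.27 ± 0.19, limma adjusted p = 0.00085) and FABP1 (-1.22 ± 0.28, limma adjusted p = 0.016) fell. VIL1 encodes the brush border protein villin and FABP1 a fatty acid binding protein. Not all markers were lower. After 6.7 Gy 2 of 10 were above the controls on day 4, by up to 2.02, and after 7.4 Gy 4 of 10 were, by up to 0.90, and none of these was called. The largest of these differences was at both doses that of FABP2, a fatty acid binding protein gene whose probe was well above background in only 1 of the 4 controls. Without the animals that stood apart, 6 of 10 markers were above the controls after 6.7 Gy and 6 of 10 after 7.4 Gy, with medians of 0.32 and 0.03 in place of -0.56 and -0.18. The lowest difference after 6.7 Gy was then -0.99, so neither VIL1 nor KRT20 kept a 2-fold fall at that dose. After 7.4 Gy the lowest was -1.13. On days 7 and 12, 0 of 10 were called by limma, and 1 marker had an unadjusted p under 0.05 with a 2-fold change on day 7 after 7.4 Gy. That was FABP2, named here after its values were seen, which was above the controls by 2.98 ± 0.98 (limma adjusted p = 0.17). The mean of the 10 markers ranged from 2.54 to 3.52 in the controls, from 1.40 to 3.54 and from 2.46 to 3.22 on day 4, from 2.75 to 3.07 and from 2.76 to 3.48 on day 7, and from 2.93 to 3.33 on day 12. Over the 9 markers other than FABP2 the group mean was 4.34 in the controls, 3.74 and 3.96 on day 4, and 4.05 and 3.97 on day 7. On day 12 it was 4.42 and 4.09, in each case 6.7 Gy before 7.4 Gy.

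Over the 24 arrays the level of TREH followed the mean of the enterocyte markers (Pearson r = 0.91, and 0.96 after the group means were subtracted). For SLC5A1 r was 0.86 and 0.88 over all arrays, for SLC2A5 it was 0.45, and for SLC2A2 it was 0.57 and 0.52. For LCT it was 0.19 with A_01_P017049 and -0.07 with A_01_P1682951, and 0.56 and 0.41 after the group means were subtracted. With the 9 markers that were well above background in all controls, which leaves out FABP2, r over all arrays was 0.97 for TREH, 0.91 and 0.90 for SLC5A1, 0.58 for SLC2A5, 0.71 and 0.67 for SLC2A2, and 0.10 and -0.23 for LCT. These values are descriptions over arrays that share groups, and replicate 4 of day 4 after 6.7 Gy is the lowest point on the marker axis. An analysis chosen after seeing the data took levels relative to the mean of all 10 enterocyte markers of each array, FABP2 included. LCT was higher on day 4 by 4.90 and 6.06 with A_01_P1682951 and by 1.39 and 2.19 with A_01_P017049. SLC2A2 was then lower by -1.33 and -1.41 on day 4 after 7.4 Gy and no longer called. This scaling also shifted the median difference over every tested probe on day 4, from -0.10 to 0.24 at the lower dose and from -0.07 to 0.19 at the higher one, by 0.34 and 0.25.

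**Figure D4:**
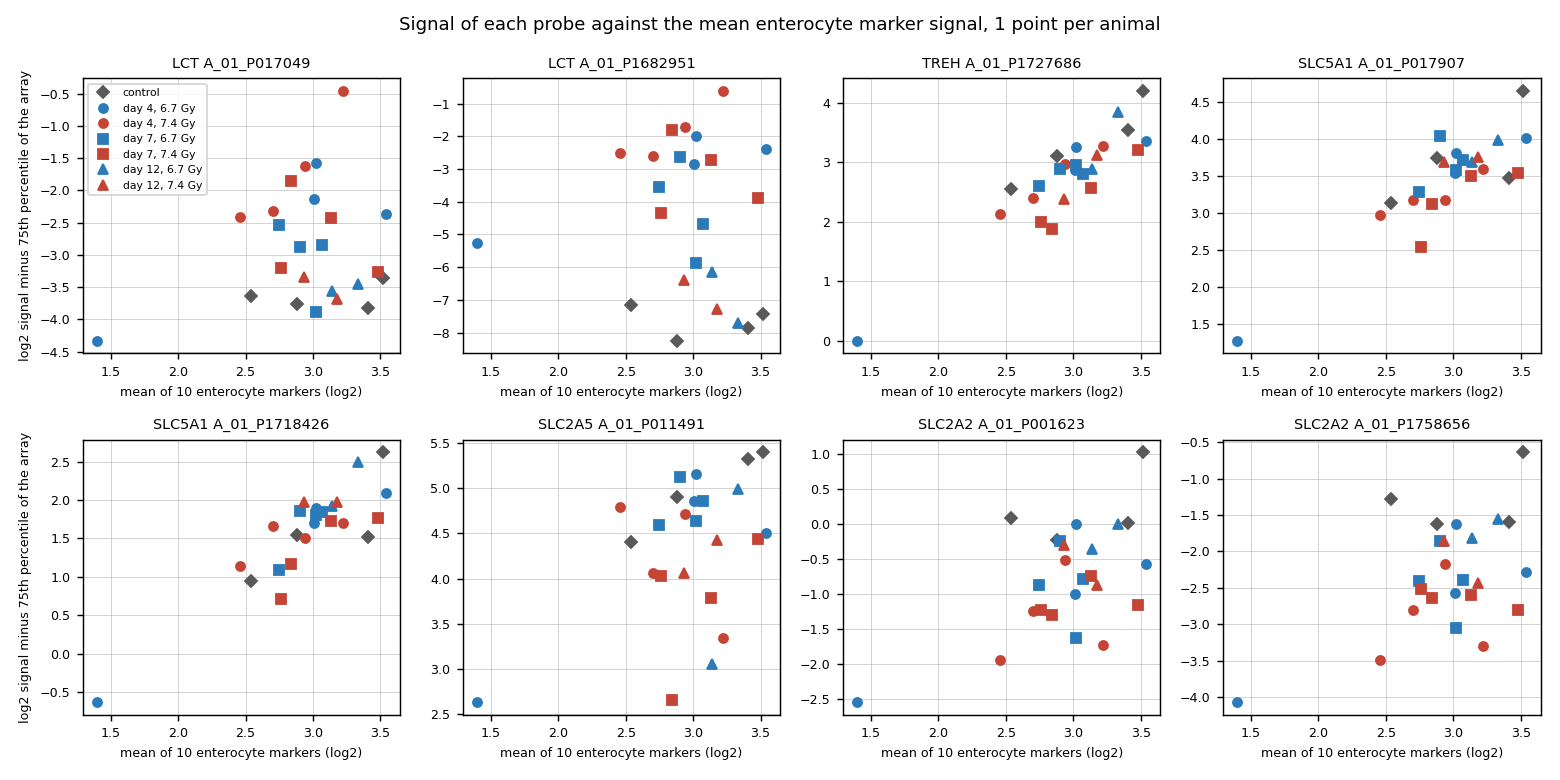
Level of each probe (vertical axis, log2 signal minus the 75th percentile of the array) against the mean of 10 enterocyte markers on the same array (horizontal axis, log2). Each point is 1 animal, with day by symbol and dose by colour. TREH and SLC5A1 rise along the marker mean, whereas the LCT levels of the controls stay low over marker means of 2.54 to 3.52.

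Other cell types were set beside the same groups. Of the 4 tested goblet cell markers, AGR2 (-1.12 ± 0.28 and -1.61 ± 0.28) and CLCA1 (-1.22 ± 0.28 and -1.08 ± 0.28) fell on day 4 at both doses, with limma adjusted p-values of 0.041 and 0.0032 for AGR2 and 0.027 and 0.028 for CLCA1. All 4 were lower after 6.7 Gy and 3 of 4 after 7.4 Gy, where the other was higher by 0.29. Of 6 fibroblast markers, LUM, DCN and COL3A1 rose on day 4 after 7.4 Gy, by 1.09 ± 0.25, 1.26 ± 0.26 and 1.01 ± 0.28 (limma adjusted p = 0.014, 0.0097 and 0.037). The mean fibroblast marker level ranged from 0.65 to 1.16 in the controls, from 1.20 to 2.11 on day 4 after 6.7 Gy and from 1.62 to 2.39 after 7.4 Gy. Without the animals that stood apart, all 6 fibroblast markers were higher after 7.4 Gy, with a median of 0.81 in place of 0.91. The largest difference was then 1.06. Of 6 B and T cell markers, CD79B fell on day 4 by -1.29 ± 0.29 and -1.25 ± 0.29 and on day 7 after 7.4 Gy by -1.34 ± 0.29 (limma adjusted p = 0.025, 0.016 and 0.026). By limma, 0 of 4 smooth muscle, 0 of 3 Paneth cell, 0 of 3 crypt, 0 of 6 epithelial, 0 of 5 ileal and 0 of 4 duodenal and jejunal enterocyte markers were called against the controls. With limma's unadjusted p under 0.05 and a 2-fold change there were 2 ileal markers on day 4 after 6.7 Gy, 1 duodenal and jejunal marker on day 4 after each dose, and 1 crypt marker on day 4 after 7.4 Gy and on day 7 after 6.7 Gy. Without the animals that stood apart, the ileal differences ran from -0.63 to 0.89 on day 4 after 6.7 Gy. The duodenal and jejunal ones then ran from -0.39 to 0.49 after 6.7 Gy and from -0.91 to 0.80 after 7.4 Gy, so none of these was 2-fold. The part of these cell types in the levels of LCT and SLC2A2 was not tested.

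Of 37 other genes of sugar digestion, transport and early metabolism, 25 were tested, among them the glucose carriers SLC2A1, SLC2A4 and SLC2A7, the sodium-coupled transporters SLC5A4 and SLC5A9, and the fructose enzyme KHK. By limma, 0 of 25 were called in any of the 6 comparisons with the controls. At an unadjusted p under 0.05 with a 2-fold change there were 4 on day 4 after 6.7 Gy, 3 on day 4 after 7.4 Gy and 0 later. On day 4, 22 of 25 were below the controls after 6.7 Gy and 20 of 25 after 7.4 Gy, with medians of -0.39 and -0.27, beside -0.10 and -0.07 over all tested probes. Without the animals that stood apart, 20 and 18 of 25 were below, with medians of -0.21 and -0.38. The single differences on day 4, with all animals, ran from -1.82 to 0.45 after 6.7 Gy and from -1.71 to 0.96 after 7.4 Gy. The medians of day 7 were -0.01 and -0.14, those of day 12 0.17 and -0.01.

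Of 20 other brush border hydrolases, 14 were tested, among them the peptidases ANPEP, DPP4, ENPEP and MME. Again 0 of 14 were called by limma in any comparison, and 2, 1, 0, 0, 0 and 1 passed at an unadjusted p under 0.05 with a 2-fold change on days 4, 7 and 12, 6.7 Gy before 7.4 Gy. Their changes ran in both directions on day 4, from -1.77 to 1.45 after 6.7 Gy and from -2.05 to 1.46 after 7.4 Gy, with medians of -0.42 and -0.17. Without the animals that stood apart the medians were 0.36 and 0.05. No other hydrolase rose with a call on days 4 and 7, when 0.235% to 2.33% of all tested probes were called. Nothing is read from this, and LCT A_01_P017049 was itself called only on day 4 after 7.4 Gy.

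Of 20 regulators of these genes, 15 were tested, among them the intestinal transcription factors CDX1, CDX2, HNF4A and HNF4G and the sweet taste receptor subunits TAS1R2 and TAS1R3. On day 4 after 7.4 Gy, 2 of 15 were called, both lower. KLF5, a factor of dividing crypt cells, was among them and fell by 1.14 ± 0.16 (limma adjusted p = 0.00043). By limma, 0 of 15 were called in the other 5 comparisons, and 0 of 15 at an unadjusted p under 0.05 with a 2-fold change. MCM6, the neighbour of LCT whose introns hold the lactase persistence enhancer in humans, was tested and had no call.

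Genes whose level was most like that of LCT A_01_P017049 over the 24 arrays were COL12A1, MTHFSD, MMP2, TREM2, SESN1, DCP1B, RPS27L, LAMP2, GASK1B and C7. Their Pearson r ran from 0.80 for COL12A1 to 0.74 for C7. After the group means were subtracted, r was 0.73 for MTHFSD, 0.70 for LAMP2 and 0.47 for C7, the lowest of the 10. With LCT A_01_P1682951 the same genes had r of 0.62 for LAMP2 to 0.89 for DCP1B. The most opposite genes were PDIA3 (r = -0.77), PREB, RIT1, LOC711309 and RAB25 (r = -0.72). Of the other sugar genes, none came near these values, with r from -0.19 for SLC2A2 A_01_P1758656 to 0.17 for SLC5A1 A_01_P1718426. After the group means were subtracted, however, SLC2A2 had r of 0.61 and 0.62 and SLC5A1 0.65 and 0.55 with the same LCT probe.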

How the data were processed

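The authors labelled total RNA of each ileum for Agilent single-color Rhesus Macaque arrays, and per the file headers Feature Extraction 11.0.1.1 gave each spot a background-subtracted intensity. Their deposited raw table holds these intensities, and their deposited normalized table holds log2 values relative to the 75th percentile of each array, centred on each probe's median. Levels were computed again from the deposited intensities of the scanner files as log2 signal minus the 75th percentile of the array (43603 probes). Tested were the 36108 probes that all arrays of 1 or more groups detected well above background, the 8 probes of the sugar genes included. The number of arrays limits the precision.

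Limma 3.58.1 in R 4.3.3 fitted 1 mean for each of 7 groups over 24 arrays. P-values were adjusted by Benjamini-Hochberg within each comparison, across the tested probes. The fit was tested on simulated data. Genes of a list were represented by their brightest tested probe. The members and lists were chosen with earlier results of these data known. Named beside the members are list genes called against the controls, defining markers, and the 10 genes most like and 5 most opposite to the LCT probe that is brightest. Symbols came from the deposited table and, for 8317 probes, by accession from the RefSeq table. As an exception to this rule, 1 of the regulators called on day 4 after 7.4 Gy is not reported here. Gene positions are not given, because that table and the array annotation use different builds. The labels' protocol text names another day for the day 12 animals; titles, day field and methods name day 12, which was used. P-values measure the spread between animals, 1 array each.

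Alternatives were quantile normalization, normexp on spot and background medians (offset 50), the authors' table, other filters on dim probes, trend and robust moderation, slide, replicate number or array position as a term, each animal left out, and the methods' t-test. Chosen after seeing the data were the fits without 2 animals and relative to enterocyte markers, and the use of detected enterocyte markers alone. Saturated spots numbered 0.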

Additional observations from a re-analysis of the deposited data

Results flagged for a closer look

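Of 40 groups of 4 animals (5 groups for each of 8 probes), 3 held an animal whose gap to the nearest other, divided by the range of the group, exceeded Dixon's 95% critical value. Chance flags about 1 in 20 such groups. Replicate 4 of day 4 after 6.7 Gy was far below the others in TREH (0.00) and in SLC5A1 A_01_P1718426 (-0.63). Replicate 4 of day 7 after 6.7 Gy was far below the others in SLC5A1 A_01_P1718426 (1.09). The level of LCT A_01_P1682951 against the controls was unlike on day 12 and day 4, by -3.81 after 6.7 Gy and by -4.96 after 7.4 Gy. These values are a description, since LCT was chosen with its day 4 level known and the probe entered the test only through groups in which it is high. On day 12 it was not well above background in 2 of 2 animals after 6.7 Gy and in 1 of 2 after 7.4 Gy. With limma the 2 differences passed the limits for a call, the first not with normexp, with slide as a block or without either day 12 animal, the second not without replicate 1 of day 12, and neither with the methods' t-test after Benjamini-Hochberg adjustment.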

How the results depend on the processing

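Quantile normalization, the authors' table and trend with robust moderation left the counts of called probes of the sugar genes, and of the other sugar genes and hydrolases, within 1.5 times their value. The counts of marker and regulator genes were not computed under the alternatives. Over all tested probes, quantile normalization called 60 in place of 39 on day 12 after 6.7 Gy, 8 in place of 1 between doses on day 12, and 27 and 15 in place of 13 and 2 between day 12 and day 7. Trend with robust moderation called 27 in place of 16 on day 12 after 7.4 Gy and 5 in place of 2 between day 12 and day 7. On day 4 after 6.7 and 7.4 Gy the counts of 353 and 842 became 217 and 491 with normexp, 199 and 144 with array position as a covariate, and 50 and 89 relative to the enterocyte markers. Between day 12 and day 4 the counts of 937 and 650 became 322 and 417 with normexp, 153 and 338 with slide as a block, and 15 and 26 relative to the enterocyte markers. Of the 15 comparisons, the count over all probes moved by more than 1.5 times in 9 with normexp, 10 with slide as a block and 14 relative to the enterocyte markers. Without a filter on dim probes, 0 probes of the sugar genes were called on day 7 after 6.7 Gy in place of 1. With normexp the counts were 2 on day 4 after 6.7 Gy, 0 on day 7 at both doses and 0 between day 12 and day 4 after 6.7 Gy. Testing only probes above background on all arrays drops LCT A_01_P1682951 by construction, and the counts were then 0 on day 4 after 6.7 Gy, 0 on day 7 at both doses and 0 between day 12 and day 4 at both doses. With slide as a block they were 3 on day 4 after 6.7 Gy, 3 on day 7 after 7.4 Gy and 0 between day 12 and day 4 after 6.7 Gy, and 2 of the other sugar genes and hydrolases were called on day 4 after 7.4 Gy. With array position as a covariate 1 probe was called on day 4 after 7.4 Gy, and relative to the enterocyte markers 2 were. With the methods' t-test and its unadjusted threshold, 3 and 4 probes were called on day 7 after 6.7 and 7.4 Gy, 1 between doses on day 7 and 1 between day 12 and day 7 after 7.4 Gy. Of the other sugar genes and hydrolases it called 2 on day 4 and 1 on day 12 after 7.4 Gy. After Benjamini-Hochberg adjustment that t-test called 1 probe on day 4 after 7.4 Gy and 0 on day 4 after 6.7 Gy, on day 7 and between day 12 and day 4. The cause of these shifts was not tested.

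Nothing in the labels ties equal replicate numbers of different groups to a shared source. The deviations of same-numbered animals correlated at a median of 0.03 over 62 pairs of animals (-0.264 to 0.365). With the replicate block, 0 probes were called on day 7 after 6.7 Gy, and no other count of the sugar genes moved by more than 1.5 times.

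Leaving out 1 animal gave counts of 1 to 2 on day 4 after 6.7 Gy, 2 to 4 on day 4 after 7.4 Gy, 0 to 1 on day 7 after 6.7 Gy, and 0 to 1 between day 12 and day 4 at each dose. For the other sugar genes and hydrolases the counts were 0 to 2 on day 4 after 6.7 Gy and 0 to 1 after 7.4 Gy. Where 1 day 12 animal was left, its spread was taken from the other groups. The difference of LCT between doses on day 12 had no stable sign. For A_01_P017049 it was -0.01, and 0.14 with quantile normalization, 0.03 with slide as a block, 0.17 relative to the enterocyte markers and -0.18 to 0.17 with 1 animal left out. For A_01_P1682951 it was 0.11, -0.07 with normexp and -0.67 to 0.88 with 1 animal left out. Signal near background limits A_01_P1682951 in the controls and on day 12. Of 890 values of the single probes against the controls under the alternatives, 843 moved by less than the SD of the controls, 47 by more, and 0 of the called values changed sign. This count is no measure of stability, because some alternatives cannot move a fitted difference. These are the other filters on dim probes, trend and robust moderation and the methods' t-test, while the authors' table holds nearly the same values.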
